A study of Mus musculus with 12 samples.

Results

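DNA methylation was compared between the CD11b-positive leukaemia cells of treated mice and the leukaemia cells of untreated mice, with the aim of finding which gene families and which classes of CpG density gained or lost methylation. The comparison takes all 4 libraries of the CD11b-positive group and all 4 of the PBS group, which are 8 of the 12 libraries of the series. CMM cells are GFP-positive mouse acute myeloid leukaemia cells with inv(16), and they were engrafted through a vein into C57BL/6 mice, so every library comes from leukaemia grown in a host that kept its own blood cells. Treatment began at a share of about 1% GFP-positive cells in blood, and consisted of 3 intravenous doses, given every other day, of PBS or of CpG-STAT3dODN, in which a decoy DNA that binds STAT3 is coupled to a CpG oligonucleotide. Spleens were taken 1 day after the last dose. The PBS group holds all GFP-positive cells, whereas the CD11b-positive group holds the GFP-positive cells of the CpG-STAT3dODN mice that also carried CD11b, an integrin subunit of mature myeloid cells. The 4 CD11b-negative libraries, the GFP-positive cells without CD11b from the CpG-STAT3dODN mice, entered none of the main tests. They served to sort sites by level, as reference values and in an alternative fit of all 12 libraries. Treatment and sort differ together between the compared groups, so their parts cannot be told apart. The labels do not say whether the replicates came from separate mice, and p-values measure the spread between these libraries, which may be technical. Neither the age nor the sex of the mice is stated in the labels.

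Reduced representation bisulfite sequencing reads DNA cut at CpG-containing restriction sites after bisulfite has turned unmethylated cytosines, but not methylated ones, into uracil. Mammalian DNA is methylated mainly at CpG sites. CpG islands, where CpGs crowd together, cover many gene starts and are usually free of methylation, while isolated CpGs in genes and between them are usually methylated. In dividing cells and cancers, isolated CpGs flanked by A or T are known to lose methylation most readily, and islands of developmental genes are known to gain it.

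The promoters below show the contrasting kinds of gene start that the results turn on. The first 3 are CpG-poor and gained methylation, and the last 2 are CpG-dense and lost it. Each is RefSeq sequence of GRCm38.p6 (the mm10 build), printed in the direction of the gene from 250 bases before its start to 50 bases after it, with the CpGs that had at least 10 calls in all 8 libraries in capitals. Rhd, the red cell Rh antigen, lies at chr4:134864286-134864585 on the plus strand. Olfr281, an odorant receptor, lies at chr15:98456062-98456361 on the plus strand, and Krtdap, a protein of differentiating keratinocytes, at chr7:30787655-30787954 on the plus strand. Kcnk2, a background potassium channel, lies at chr1:189343658-189343957 on the minus strand, and Ctnnd2, a catenin of neurons, at chr15:30172284-30172583 on the plus strand.
Rhd: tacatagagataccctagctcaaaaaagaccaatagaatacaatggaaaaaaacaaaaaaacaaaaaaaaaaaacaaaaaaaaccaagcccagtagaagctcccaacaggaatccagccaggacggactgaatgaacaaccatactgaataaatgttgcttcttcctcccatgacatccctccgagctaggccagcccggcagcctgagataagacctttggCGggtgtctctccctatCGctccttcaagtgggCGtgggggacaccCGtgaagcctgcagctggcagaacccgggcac
Olfr281: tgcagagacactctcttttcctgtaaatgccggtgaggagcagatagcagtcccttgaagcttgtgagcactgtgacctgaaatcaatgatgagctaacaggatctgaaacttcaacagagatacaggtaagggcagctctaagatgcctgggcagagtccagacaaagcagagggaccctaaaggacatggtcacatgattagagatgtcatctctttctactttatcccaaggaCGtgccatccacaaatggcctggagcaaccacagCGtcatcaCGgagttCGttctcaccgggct
Krtdap: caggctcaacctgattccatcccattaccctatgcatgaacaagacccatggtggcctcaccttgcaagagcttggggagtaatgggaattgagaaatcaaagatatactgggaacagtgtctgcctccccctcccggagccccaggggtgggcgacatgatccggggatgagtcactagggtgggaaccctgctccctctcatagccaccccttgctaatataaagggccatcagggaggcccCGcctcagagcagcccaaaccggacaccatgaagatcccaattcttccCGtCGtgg
Kcnk2: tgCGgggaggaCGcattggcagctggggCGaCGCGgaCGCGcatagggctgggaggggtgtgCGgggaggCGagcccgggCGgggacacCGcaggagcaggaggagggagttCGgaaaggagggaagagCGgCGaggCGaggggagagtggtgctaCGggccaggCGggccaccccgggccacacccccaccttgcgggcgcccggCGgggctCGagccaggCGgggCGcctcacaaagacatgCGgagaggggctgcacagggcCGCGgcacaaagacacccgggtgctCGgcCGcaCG
Ctnnd2: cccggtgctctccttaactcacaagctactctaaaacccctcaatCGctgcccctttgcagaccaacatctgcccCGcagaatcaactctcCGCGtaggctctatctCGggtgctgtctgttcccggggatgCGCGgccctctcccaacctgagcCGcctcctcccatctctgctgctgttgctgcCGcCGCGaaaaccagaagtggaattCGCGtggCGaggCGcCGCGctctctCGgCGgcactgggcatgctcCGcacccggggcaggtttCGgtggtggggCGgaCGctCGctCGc

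In the Rhd promoter 4 of 8 CpGs were measured, with group means of 6.96% to 8.23% in PBS and 51.9% to 59.8% in CD11b-positive cells. In Olfr281, 4 of 6 CpGs were measured with only 14 to 35 calls per library, and each was higher in CD11b-positive cells by 9.24 to 45.3 percentage points. The 3 measured CpGs of Krtdap, of 7, stood at 16.1% to 27.4% in PBS and 42.1% to 66.8% in CD11b-positive cells. The dense promoters went the other way at every measured CpG. All 27 measured CpGs of Kcnk2, of 33, were lower, with differences of -43.2 to -23.8 points, and so were all 25 of Ctnnd2, of 28, with -41.7 to -15.6 points. At each of these 5 promoters the group means of the measured CpGs differed in a single direction. These genes are among those named below for large called differences, so this agreement follows largely from the choice. At Olfr281 the libraries of the groups overlapped at the CpGs 20, 28 and 35 bp after the start. The first of these stood at 66.7% to 76.9% in PBS and 75% to 88.2% in CD11b-positive libraries.

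The 8 libraries held 117165833 to 144121254 calls. They shared 1181879 autosomal CpGs with at least 10 calls in each (median 75 calls per CpG and library), called common CpGs from here on. CD11b-positive libraries listed more CpGs than PBS libraries (3713833 to 6839563 against 2831927 to 3378484) at fewer calls per listed cytosine (14.6 to 25.6 against 27.7 to 30.9). CD11b-positive 2 stood apart from the other 3 of its group in most measures below, and the class means, the counts of calls, the family counts and the named genes are also given without it. Calls on 8 genes of the Y chromosome, per 1000000 autosomal calls, were 5.52 to 18.6 in PBS and 23.8 to 41.3 in CD11b-positive libraries without overlap, so this share moves with the comparison throughout. The gene of CD11b itself, Itgam, had no measured tile, and the sort could not be checked on it.

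Mean methylation over the common CpGs was higher in CD11b-positive cells, and the size and sign of the difference followed CpG density. Density is the number of CpGs listed within 250 bp on each side of a CpG, itself included. CpGs of the sparsest class, 1 to 4, stood at 50.8%, 56.4%, 53.2% and 53.6% in the 4 PBS libraries and at 69.6%, 79.96%, 67.7% and 67.5% in the 4 CD11b-positive libraries. The groups were far apart, and CD11b-positive 2 was the highest of all. The mean difference was 17.7 points, from 53.5% ± 2.28 to 71.2% ± 5.91 (SD, n = 4 per group). At 5 to 9 CpGs it was 13.7 points (58.6% ± 1.87 to 72.3% ± 4.60), at 10 to 14 it was 10.1 points (59.7% ± 1.39 to 69.8% ± 3.35), and at 15 to 24 it was 4.44 points (47.2% ± 0.439 to 51.6% ± 1.29). In the densest class, 25 or more, the PBS libraries stood at 10.4%, 8.97%, 10.2% and 9.71% and the CD11b-positive libraries at 8.06%, 6.30%, 8.45% and 8.66%. Here every CD11b-positive library was below every PBS library, with a mean difference of -1.96 points (9.83% ± 0.642 to 7.87% ± 1.07). This class holds 562283 CpGs, 47.6% of the common ones, so the gain over all common CpGs was only 4.32 points (33.4% ± 0.421 to 37.8% ± 1.22).

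The groups did not overlap in any density class, and each difference had a two-sided exact permutation p of 0.0286, the smallest that 4 libraries against 4 allow, and an adjusted p of 0.0321 over the 9 class tests. Without CD11b-positive 2 the differences were 14.8, 11.4, 8.47 and 3.80 points in the 4 sparser classes (exact permutation test, adjusted p = 0.0367), and -1.44 in the densest (adjusted p = 0.0571), where the libraries still did not overlap.

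**Figure D1:**
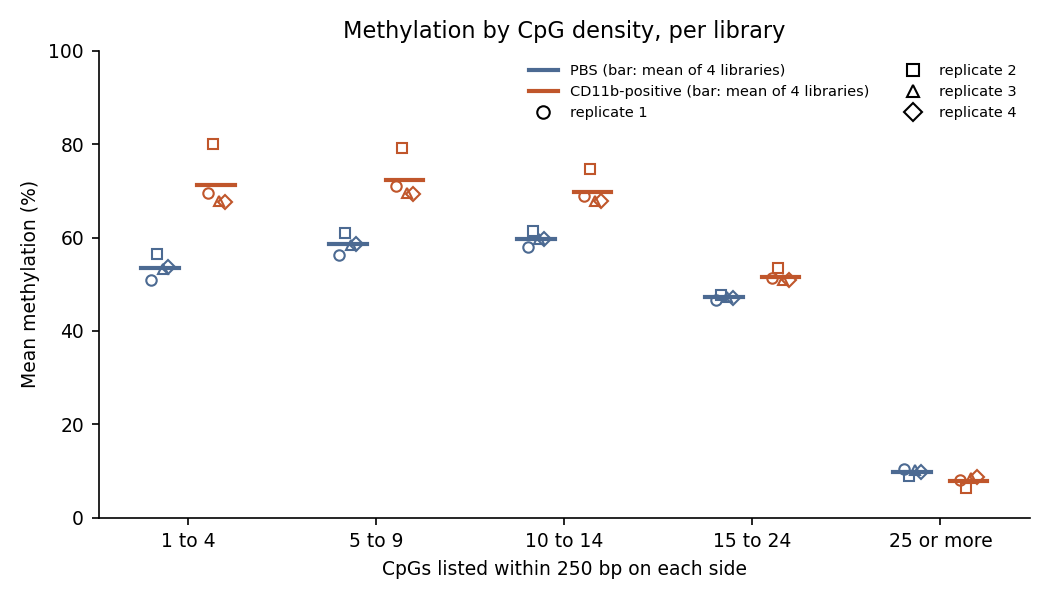
Mean methylation in percent (vertical axis) of common autosomal CpGs in 5 classes of CpG density (horizontal axis); open symbols are libraries, shaped by replicate number, and bars are means of 4 libraries. CD11b-positive libraries lie above PBS libraries in the 4 sparser classes, by 17.7 points in the sparsest, and below them in the densest class, with a difference of -1.96 points.

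The bases beside a CpG sorted the gain a second time. CpGs with A or T on both sides stood at 35.4%, 39.2%, 37.1% and 37.3% in PBS and 47.0%, 53.4%, 45.8% and 45.8% in CD11b-positive cells. No library crossed over, and the difference was 10.8 points. CpGs with 1 such base gained 5.62 points (35.8% ± 0.644 to 41.4% ± 1.72), again without overlap (both with a two-sided exact permutation p of 0.0286, adjusted 0.0321). CpGs with C or G on both sides overlapped between groups, at 28.01% ± 0.361 and 28.4% ± 0.285 (difference 0.416, exact permutation p = 0.114, unchanged by adjustment). The flanks also graded the gain within a density class, which was described without a test. In the sparsest class the gain was 21.4 points with A or T on both sides (43.1% to 64.4%), 18.1 with 1 such base and 10.8 with C or G on both sides (69.4% to 80.2%). At 5 to 9 CpGs the same order ran 17.9, 13.97 and 8.53 points, at 10 to 14 it ran 14.1, 10.7 and 6.22, and at 15 to 24 it ran 7.73, 5.04 and 2.21. PBS cells were lowest at A or T flanked CpGs in each of these classes, and the spread between flank classes was narrower in CD11b-positive cells. The room to gain was therefore unequal. As a share of the unmethylated part in PBS, the sparsest class gained 37.5% between A or T, 38.9% at mixed flanks and 35.2% between C or G. In that order the shares were 34.2%, 33.6% and 29.0% at 5 to 9 CpGs, and 28.2%, 25.7% and 19.7% at 10 to 14. At 15 to 24 they were 13.1%, 9.15% and 4.44%. The densest class ran the other way, with differences of -2.29 points between C or G, -1.70 at mixed flanks and -0.958 between A or T, where the libraries overlapped.

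**Figure D2:**
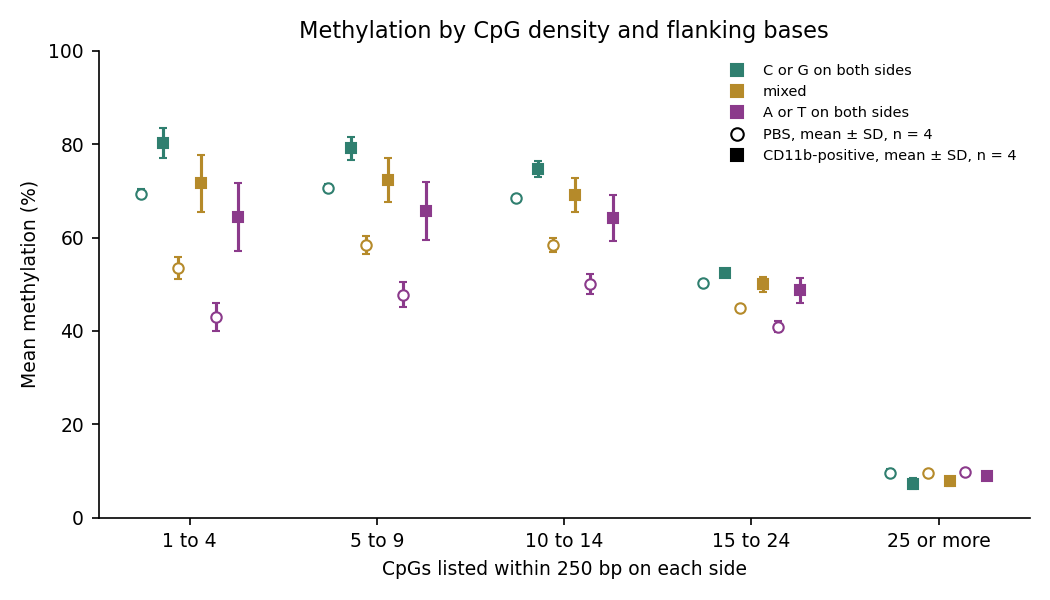
Mean methylation in percent (vertical axis, mean ± SD of 4 libraries) by CpG density (horizontal axis) and flanking bases (colours), with open circles for PBS and filled squares for CD11b-positive cells. In the sparsest class the 3 flank classes spread from 43.1% to 69.4% in PBS and from 64.4% to 80.2% in CD11b-positive cells.

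Sites were also described by their mean level in the CD11b-negative libraries. Those come from the same kind of treated mice, and CD11b-negative 2 tracks CD11b-positive 2, so a site can fall into the class of 20% to 80% through the difference itself. The split is therefore given without a test. The 246900 CpGs at 20% to 80% there stood at 46.5% in PBS and 58.2% in CD11b-positive cells (11.8 points), those at 80% or more at 89.3% and 92.7% (3.37 points), and the 568827 under 20% at 2.31% and 2.22%. Within the intermediate sites, the sparsest class was 25.2 points higher (39.6% and 64.8%), and the densest differed by -18.2 points (51.1% ± 5.15 and 32.9% ± 9.46, SD, n = 4). Most dense CpGs, 474152 of 562283, were under 20% and stood at 1.99% and 1.60%, and 50168 were at 20% to 80%. Without CD11b-positive 2 the differences at 20% to 80% were 10.03 points over all densities, 20.9 in the sparsest class and -13.5 in the densest.

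Calls on single CpGs showed the same split. A call needed an adjusted p under 0.05 in a quasi-binomial F test over all features of its kind and a difference of at least 10 points. Of the common CpGs, 168508 were called higher (14.3%) and 37746 lower (3.19%), 17.5% in all. The class of 25 or more held 73.1% of the lower calls and 2.79% of the higher ones. Calls higher made up 45.02% of the sparsest CpGs, 35.1%, 26.7% and 13.1% of the next 3 classes and 0.837% of the densest. By flanks, 29.5% of the CpGs between A or T were called higher and 1.72% lower, against 5.62% and 4.24% of those between C or G.

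Tiles, non-overlapping stretches of 1000 bp with at least 3 common CpGs, repeated this on 102699 regions. The calls were 35883 higher (34.9%) and 3095 lower (3.01%), together 38% of the tiles, and the libraries of the groups did not overlap in 56% of them. From the sparsest to the densest class of tiles, the share called higher fell from 60.4% through 53.0%, 43.2% and 23.3% to 2.17%, and the share called lower rose from 0.646% through 1.21%, 1.98% and 3.44% to 7.26%. Of the dense tiles at 20% to 80% in CD11b-negative cells, 1266 of 2074 were called lower and 311 higher. At that level 1485 of 1831 of the sparsest tiles were called higher and 13 lower, with the same limit on the split by level. Without CD11b-positive 2 the calls were 31398 higher and 2498 lower.

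The largest single changes reached more than 50 points. The tile with the largest gain among those of 5 to 9 CpGs, chr6:38921001-38922000 inside Tbxas1 (thromboxane synthase of platelets and myeloid cells), stood at 6.47%, 18.7%, 13.8% and 13.0% in PBS and 82.5%, 90.2%, 64.3% and 65.4% in CD11b-positive cells, a gain of 62.6 points (adjusted p = 0.000684). Its groups were far apart, and the CD11b-negative mean lay between them at 41.6%. The tile of 15 to 24 CpGs with the largest gain, chr16:35857001-35858000 inside Parp14, a gene of the interferon response, rose from 9.16% ± 2.67 to 70.9% ± 8.70 (SD, n = 4). In the densest class, a tile inside Sox5 at chr6:143833001-143834000, with 26 common CpGs, stood at 3.42%, 9.05%, 8.53% and 9.28% in PBS and 53.7%, 84.2%, 45.8% and 52.9% in CD11b-positive cells. It gained 51.6 points against the direction of its class. A sparse tile outside genes on chromosome 18 gained 57.5 points, and one at 10 to 14 CpGs, at -50274 bp from the start of Phc1, gained 59.9 points. The largest losses were a difference of -27.7 points inside Atp10a (1 to 4 CpGs), -42.3 inside Rcor1 (5 to 9), -44.99 outside genes on chromosome 7 (10 to 14), -40.9 at the start of Gm4767 (15 to 24) and -48.3 at chr1:66467001-66468000, at the start of Unc80 (25 or more), a subunit of the sodium leak channel of neurons. The Unc80 tile held 3 common CpGs with 56 to 98 calls per library. It stood at 72.4%, 60.3%, 55.7% and 80.3% in PBS and at 4.62%, 5.36%, 33.7% and 31.9% in CD11b-positive cells, without overlap. The tiles inside Tbxas1, Atp10a and Rcor1, the one on chromosome 18 and the one near Phc1 also rested on 3 common CpGs each. All 10 of these tiles stayed called without each library in turn, with adjusted p of at most 0.0222.

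Distance from gene starts ordered the difference as well. Over the 417786 common CpGs within 1000 bp of the start of a protein-coding gene the mean was 6.60% ± 0.459 in PBS and 5.36% ± 0.708 in CD11b-positive cells. Over the other parts of genes it was 44.99% ± 0.752 and 51.2% ± 1.91, and outside genes 52.6% ± 1.01 and 61.7% ± 2.77 (SD, n = 4, no overlap in any of these 3 places). Without CD11b-positive 2 the differences were -0.898, 5.24 and 7.70 points. Around the starts the difference was -1.28 points in the 250 bp upstream and -1.32 in the 250 bp downstream. It turned positive between 500 and 1000 bp upstream (0.661 points) and between 1000 and 2000 bp downstream (1.47 points), and reached 8.51 and 8.64 points at 10000 to 20000 bp. Place and density are linked, and within the densest class the difference was of a like size at gene starts (-1.82 points), over the other parts of genes (-2.22 points) and outside genes (-2.14 points). Within the class of 5 to 9 CpGs the gain was 10.5 points at gene starts, 13.0 over the other parts of genes and 14.7 outside them.

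**Figure D3:**
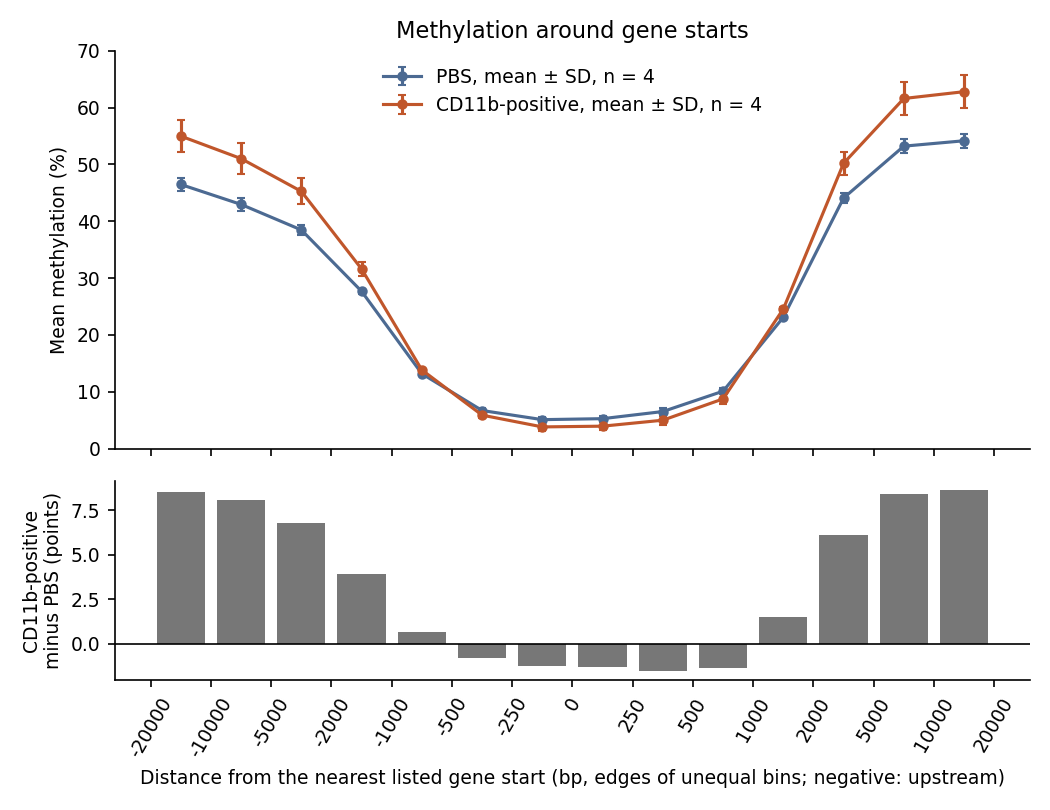
Upper panel, mean methylation in percent (mean ± SD of 4 libraries) by distance in bp from the nearest listed gene start, in bins of unequal width; lower panel, the difference in percentage points. The difference is -1.28 and -1.32 points in the 250 bp on either side of the start and 8.51 and 8.64 points at 10000 to 20000 bp.

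Gene families were compared at gene starts, in windows of 1000 bp on each side that held at least 3 common CpGs. Of 20661 autosomal protein-coding genes, 16456 had a listed start and 10988 a measured window (median 35 CpGs and 3165 calls per library). Calls were 531 higher (4.83%) and 498 lower (4.53%), 9.36% of the windows in all, and 28.2% had libraries without overlap. The median difference was 0.0819 points. In PBS 8723 windows stood under 10% and so could not lose 10 points, though they could gain. Families were formed from gene symbols, so a few members share letters only, such as Htra1, Egfem1, Egflam and Spata13. Of the 56 families with at least 20 measured windows, each is described by its counts beside those shares, without a test of the family.

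Families of genes used in skin, nose and germ cells had the highest shares of gains. Odorant and pheromone receptors, which sense odours in the nose, had 17 of 32 measured windows called higher and none lower, against 4.83% and 4.53% of all windows, with a median difference of 15.8 points. Their mean level was 48.0% to 52.5% in the PBS libraries and 62.5% to 73.1% in the CD11b-positive ones. Keratins and other skin genes, the filaments of epithelia, had 13 of 26 called higher and none lower (52.4% to 56.8% against 64.8% to 74.0%). Germline and meiosis genes had 15 of 66 higher and 2 lower. Genes of antigen presentation by MHC molecules had 3 of 20 higher and 1 lower, and cytochrome P450 and conjugating enzymes, which handle foreign compounds, 7 of 53 higher and 2 lower. The measured windows of the first 2 families sit in CpG-poor DNA, with median densities of 12.5 and 13.3 against 36 for all windows. Most genes of these families were not measured, since 1514 receptor genes and 150 keratin and skin genes were annotated. For the germline, MHC and cytochrome P450 families the annotated genes were 125, 44 and 251. The counts describe the measured windows only. At 15 to 24 CpGs, 5 of 8 receptor windows, 3 of 7 keratin windows and 5 of 11 germline windows were called higher, against 126 of 1465 of all windows. Of those with at least 20% methylation in PBS, a level that took part in the comparison, the counts were 5 of 8, 3 of 5 and 5 of 10 against 90 of 380. At 5 to 9 CpGs, at any level in PBS, they were 5 of 8, 5 of 10 and 2 of 4 for receptors, keratins and germline genes against 174 of 385. The cytochrome P450 family was near all windows of like density. Its counts were 2 of 5 at 5 to 9 CpGs, 3 of 9 at 10 to 14 (all windows 164 of 528) and 2 of 17 at 15 to 24. At 25 or more they were 0 of 22 (all windows 58 of 8588). The MHC family had 1 of 1 at 1 to 4 and at 5 to 9, 0 of 5 at 15 to 24 and 1 of 13 at 25 or more. These are counts of few windows, without a test. With CD11b-positive 2 left out, the receptors had 15 windows called higher, the keratins 12, the germline genes 15, the MHC genes 1 and the cytochrome P450 family 4. They were 4, 6 and 5 for receptors, keratins and germline genes without PBS 1, 4, 7 and 6 without PBS 3, and 6, 6 and 5 without PBS 4.

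**Figure D4:**
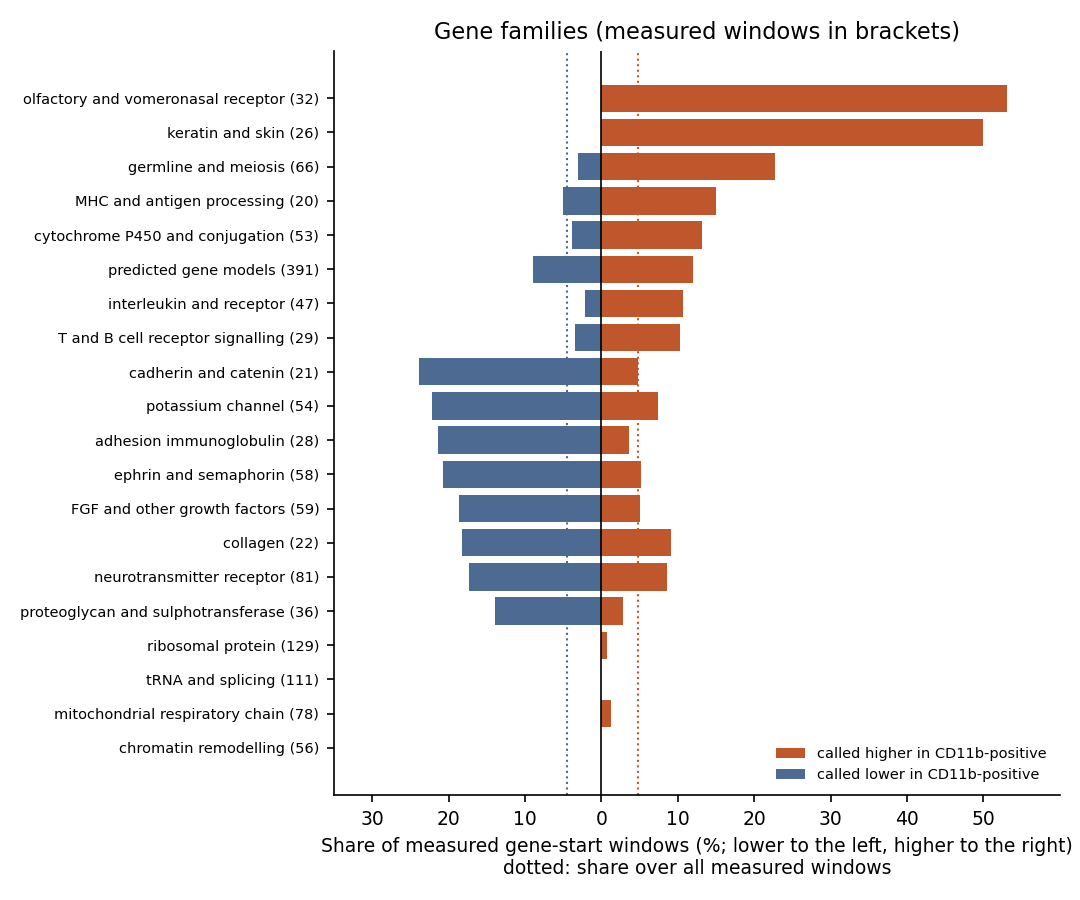
Share of measured gene start windows called higher (to the right) or lower (to the left) in CD11b-positive cells, in percent, for 20 of the 56 ranked families: those with the highest shares in either direction, and at the bottom the 4 with the most windows among those with at most 1 call; dotted lines mark all windows (4.83% and 4.53%). The olfactory and vomeronasal family has 17 of 32 windows higher and none lower, and the potassium channels have 12 of 54 lower.

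Single members show how far the groups stood apart. Olfr281 was at 21.5%, 46.1%, 32.6% and 34.4% in PBS and 70.02%, 91.5%, 53.9% and 64.6% in CD11b-positive cells, and Olfr750 was at 31.3% to 35.9% and 58.9% to 83.6%. Neither overlapped, and the gains were 36.4 points (adjusted p = 0.0250) and 32.9 points (adjusted p = 0.0106). Krt39, a hair keratin, rose by 33.6 points from 28.4% ± 6.39, and Krtdap by 31.3 points from 31.0% ± 6.03. The spermatogenesis-associated Spata25 was at 4.48%, 11.2%, 8.36% and 16.3% in PBS and 72.9%, 80.9%, 41.3% and 47.5% in CD11b-positive cells. Its 5 CpGs rose by 50.6 points without overlap (adjusted p = 0.0108). Spata46 rose by 43.7 points from 20.3% ± 8.31. Of the MHC family, the non-classical class I genes H2-M10.2 and H2-M10.4 rose by 39.2 and 12.3 points, the latter from 74.9%, and outside the naming rule Tapbp, which loads peptides on class I molecules, rose from 4.09% ± 1.28 to 14.99% ± 5.06 while the class I gene H2-Q10 fell from 25.3% ± 3.02 to 14.9% ± 4.58 (SD, n = 4). Nat8f2, an acetyltransferase, rose by 40.5 points and Cyp2w1, a cytochrome P450, by 28.7 points. Without CD11b-positive 2 the adjusted p of H2-M10.4 was 0.0503, and the other members named here by rule stayed called.

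The highest shares of losses were in families of neuronal and developmental signalling. Cadherins and catenins, which join cells, had 5 of 21 windows called lower and 1 higher. Potassium channels had 12 of 54 lower and 4 higher, adhesion proteins of the immunoglobulin type 6 of 28 and 1, ephrins, semaphorins and their receptors, which guide axons, 12 of 58 and 3, and FGF and other growth factors 11 of 59 and 3. Collagens followed with 4 of 22 lower, neurotransmitter receptors with 14 of 81 lower and 7 higher, and homeobox genes outside the Hox clusters with 8 of 70 lower and none higher. The C2H2 zinc finger genes, a large family of DNA binding proteins, had 24 of 346 lower and 7 higher. The 5 leading families had median densities of 28 to 42, on both sides of the 36 of all windows. In the class of 25 or more CpGs, 4.83% of all windows were called lower, whereas the counts were 9 of 33 potassium channels, 13 of 57 neurotransmitter receptors, 5 of 18 cadherins and catenins, 10 of 49 ephrin and semaphorin genes, 11 of 51 growth factor genes and 8 of 64 homeobox genes. Level mattered in the same class: 402 of the 415 dense windows called lower had at least 20% methylation in PBS, out of 646 such windows. At that level 9 of 9 potassium channels and 9 of 10 ephrin and semaphorin genes were called lower. The counts were 13 of 19 neurotransmitter receptors, 8 of 12 homeobox genes, 5 of 7 cadherins and catenins and 10 of 14 growth factor genes, shares near the 402 of 646. Of the sodium and calcium channels 1 of 7 was called lower. Levels in PBS took part in the comparison, so these last counts describe the calls only. Of the neurotransmitter receptors, all 7 windows called higher lay under a density of 25. With CD11b-positive 2 left out, the lower calls were 10 in the potassium channels, 5 in the cadherins and catenins, 9 in the ephrin and semaphorin genes, 9 in the growth factors, 13 in the neurotransmitter receptors and 6 in the homeobox genes. The lower calls of these 6 families ended without PBS 1 and without PBS 3, except for 2 growth factor genes each time, and without PBS 4 only 4 growth factor and 3 ephrin and semaphorin genes were called lower. When CD11b-positive 1 was left out they were 1 to 5 per family.

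Single members of these families are given next. Kcnk2 (74 CpGs, 6685 to 9591 calls) was at 63.2%, 48.0%, 63.6% and 57.9% in PBS and 29.1%, 6.92%, 32.5% and 36.3% in CD11b-positive cells. All CD11b-positive libraries were lower, and the difference was -32.0 points (adjusted p = 0.0185). Kcnma1, the calcium-activated channel of large conductance, was at 60.9%, 45.1%, 60.3% and 55.6% against 29.2%, 3.80%, 34.7% and 29.99%, a difference of -31.1 points (adjusted p = 0.0245). Ctnnd2 (125 CpGs) was at 62.7%, 42.7%, 61.3% and 53.3% against 26.4%, 2.44%, 32.1% and 36.3%, and Cdh8, a cadherin, fell by 27.1 points from 56.9% ± 9.33. In each of these, PBS 2 was the lowest PBS library and CD11b-positive 2 the lowest of all. Igsf21 and the neuroligin Nlgn1, both adhesion proteins of synapses, fell by 32.2 and 26.1 points. Sema5a, an axon guidance cue, fell by 30.4 points from 53.7% ± 9.996, and the ephrin receptor Epha5 by 26.9 points from 48.2% ± 5.07. The neurotrophin Ntf3 was at 69.3%, 45.9%, 62.0% and 57.0% against 25.9%, 5.11%, 37.4% and 33.7%, without overlap, and Egfem1 fell by 27.7 points. Adjusted p-values of these 10 genes ran from 0.0185 to 0.0374.

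Among the named genes, the calls of losses depended on single libraries more often than those of gains. Of the 14 named gene windows that gained, 6 stayed called without each library in turn, namely Olfr750, Krtdap, Spata25, Rhd, Zap70 and Rag1. None of the 12 that lost did, although their differences kept their sign, with adjusted p of up to 0.110. All 12 losses ended without PBS 1, without PBS 3 and without PBS 4. PBS 2 was the lowest PBS library at these genes, and why the calls ended was not tested. Over all gene windows the calls were 192 higher and 13 lower without PBS 1, 238 and 23 without PBS 3, 230 and 39 without PBS 4, 94 lower without CD11b-positive 1, and 458 higher and 436 lower without CD11b-positive 2. With edgeR the calls were 500 higher and 221 lower.

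Several families of housekeeping genes and blood cell regulators had no or 1 call, where 9.36% of all windows were called. None of 111 windows of tRNA and splicing genes, 56 of chromatin remodelling genes, 30 of Toll receptor and inflammasome genes, 26 of histone deacetylases and acetyltransferases, 17 of IRF and STAT factors or 16 of ETS factors was called in the quasi-binomial test, where 17, 10, 7, 4, 4 and 6 of them had an unadjusted p under 0.05. In the smaller of these families a share of 9.36% comes to only 1 to 3 windows, so 0 calls there lie near it. A p that misses the threshold does not show equal levels. Of 129 ribosomal protein windows 1 was called higher, Rpl3l, a muscle paralogue of a ribosomal protein, named after its value was seen, at 51.0% ± 2.69 against 66.9% ± 8.21 (SD, n = 4). Ribosomal windows stood under 10% in PBS in 121 cases and splicing windows in 108, where a loss of 10 points could not be called. Their median differences were 0.109 and 0.0794 points.

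Lineage lists counted markers of other blood and tissue cells, beside 4.83% of all windows called higher and 4.53% lower. In lists of 5 to 13 genes, 0 or 1 call is near those shares. Of 10 measured erythroid and megakaryocyte genes 3 were called higher and none lower. Rhd was at 4.69%, 10.4%, 13.4% and 9.85% in PBS and 56.4%, 79.2%, 53.8% and 50.3% in CD11b-positive cells, a gain of 50.3 points (adjusted p = 0.00220). The other two, Ermap, a membrane protein of erythroid cells, and Epor, the erythropoietin receptor, rose from 8.06% ± 2.74 to 56.1% ± 13.5 and from 2.92% ± 1.07 to 30.9% ± 8.96. The 3 start windows were at 13.4% or less in every PBS library and above 20% in every CD11b-positive one. None of 6 granulocyte genes and none of 8 monocyte and dendritic genes was called, and 2 of each list had an unadjusted p under 0.05 in the quasi-binomial test. Of 10 T and NK cell genes, Zap70, the kinase of the T cell receptor, rose by 26.6 points from 22.997% ± 6.37, Sit1, an adaptor of T cells, rose from 19.6% ± 4.15 to 36.7% ± 10.04 with overlapping libraries, and Bcl11b, a transcription factor of T cells, fell by 29.96 points from 55.3% ± 8.63. Rag1, which cuts antigen receptor genes, was the 1 of 5 B cell genes called, and rose by 19.9 points from 17.8% ± 2.36. Of 13 endothelial and stromal genes, Madcam1, an adhesion molecule of gut vessels, rose by 17.8 points, the chemokine Cxcl12 fell by 24.9 points and Eng, a receptor of vessel walls, fell from 29.6% ± 2.30 to 16.9% ± 6.27. In bulk DNA, a change in the share of a cell type and a change within the cells cannot be told apart, and the part of other cells in these values was not tested.

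In gene bodies, meaning tiles in the rest of each gene, 37.8% of 46769 tiles were called higher and 2.76% lower. Several families with many lower calls at their starts had high shares of higher calls in their bodies. Collagens had 180 of 297 body tiles higher and 2 lower, ephrins and semaphorins 262 of 502 and 21, and potassium channels 195 of 398 and 21. Sodium and calcium channels, with 1 call in either direction at their starts, had 309 of 553 and 8. Median differences in these bodies were 14.3, 11.6, 10.5 and 12.7 points. Cadherins and catenins (189 of 426 higher), growth factors (159 of 358) and neurotransmitter receptors (215 of 471) were also above the share of all body tiles. Other families with losses at their starts were not. Adhesion proteins of the immunoglobulin type (125 of 329) were near that share. Homeobox genes outside the Hox clusters (115 of 519) and C2H2 zinc finger genes (298 of 1126) were below it. At the other end were cell cycle and DNA repair genes with 36 of 220 higher and 2 lower, tRNA and splicing genes with 41 of 217 higher and none lower, and the protocadherins, clustered adhesion genes with dense exons, with 22 of 133 in either direction. Levels in PBS differed between these families, with medians of 55.2% for collagens and 83.5% for cell cycle and repair genes, so the room to gain was unequal. With CD11b-positive 2 left out, the body tiles called higher were 157 for collagens, 229 for ephrins and semaphorins, 176 for potassium channels and 274 for sodium and calcium channels.

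What the called promoters share in sequence was read from the 300 bases at each measured start. The median number of CpGs was 6 in the 531 called higher, 21 in the 498 called lower and 22 in the 9959 not called. GC content had medians of 54.7%, 64.3% and 62.3%. The motif AGATAA, a form of the GATA factor site, was searched on both strands and found in 14.3% of the promoters called higher, 3.61% of those called lower and 5.14% of those not called, beside 11.2% of all 32851 listed promoters. CpG-poor DNA holds more A and T. Among promoters of at most 10 CpGs the shares with AGATAA were 16.3% of 410 called higher and 11.8% of 1316 not called. For TATAAA these shares were 13.9% and 13.6%, for GAGGAAG 15.9% and 15.8%, and for TGACGTCA 1.46% and 0.836%. The Rhd promoter holds the letters AGATAA shortly before its first measured CpG. A match of letters is no evidence of binding.

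The 5 libraries with a Y share of 23.8 or more, CD11b-positive 1 to 4 and CD11b-negative 2, were the highest of the 12 in the sparsest class, at 67.5% or more against 60.1% or less, and the lowest in the densest, at 8.66% or less against 8.97% or more. In the sparsest class CD11b-negative 2, with a Y share of 40.2, stood at 78.4%, next to CD11b-positive 2 with 41.3 and 79.96%, while the other 3 CD11b-negative libraries, with 8.64 to 12.9, stood at 55.3% to 60.1%, near PBS. In the densest class CD11b-negative 2 stood at 6.27% and CD11b-positive 2 at 6.30%. With the Y share as a term beside the group, gene windows called fell to 4 higher and none lower (1088 of 10988 had an unadjusted p under 0.05) and tiles to 133 higher and 25 lower, in the quasi-binomial test. Of the 19 named gains 3 tiles stayed called, in Parp14, in Sox5 and upstream of Phc1, and 15 of the other 16 kept their sign. Of the 17 named losses none stayed called and 10 changed sign. The Y share does not overlap between the compared groups, so with these 8 libraries it cannot be told apart from the group, and its part in the differences was not tested beyond these values.

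**Figure D5:**
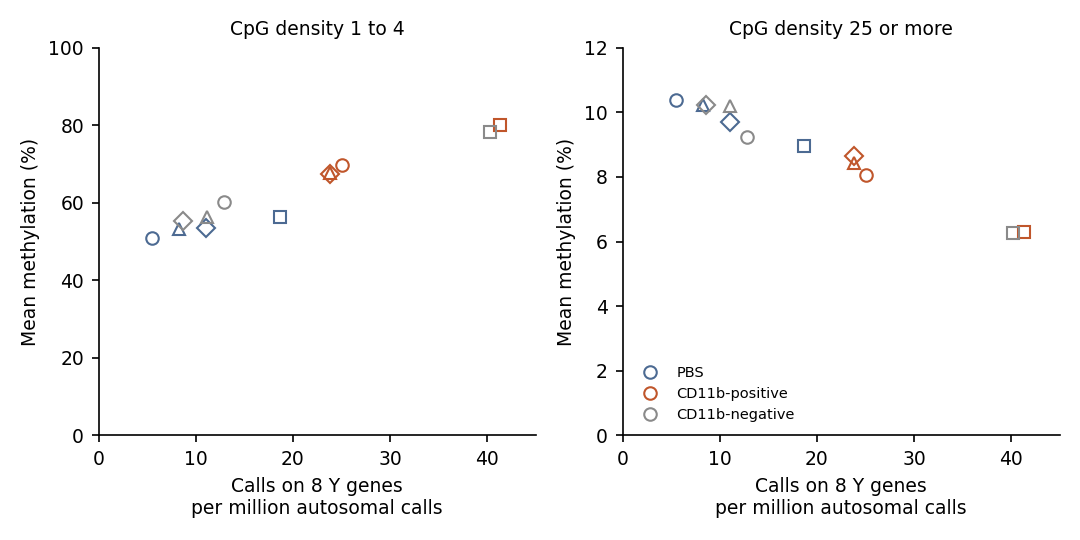
Mean methylation in percent (vertical axes, on separate scales) of the sparsest and the densest class of CpGs against calls on 8 Y genes per 1000000 autosomal calls (horizontal axes), for all 12 libraries, coloured by group and shaped by replicate number. CD11b-negative 2 lies beside CD11b-positive 2, at 78.4% and 79.96% in the sparsest class and 6.27% and 6.30% in the densest.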

How the data were processed

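The deposited files hold, per the file columns and the labels, counts of methylated and unmethylated calls for each CpG cytosine and strand, one library per file, as the authors made them from bisulfite reads and without normalization. The build mm10 and the tools Bismark, methylKit 1.20.0, cutadapt 2.7 and Trim Galore 0.6.4 are named in the submitters' processing notes. No source used here states Bismark's version, how duplicates were handled or the conversion rate. Copies of 1 molecule may be counted repeatedly, so intervals cover counting error only.

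Strands were summed, and autosomal CpGs were kept where all 8 libraries had 10 or more calls, so CpGs that CD11b-positive libraries alone list did not enter. Two-sided exact permutation tests of library means ran over all 70 assignments, with Benjamini-Hochberg adjustment over 9 tests. For CpGs, tiles and gene windows an F test was taken from a quasi-binomial logistic model, with its dispersion, not under 1, moderated in the manner of limma's squeezeVar in 5 bins of mean level (edges 5%, 20%, 80% and 95%), adjusted over all features of a kind. Only the 8 compared libraries entered. Starts and strands came from the RefSeq promoter table of GRCm38.p6, and where a gene had several starts (2233 windows) the one with the most common CpGs was used. At the promoters all 115627 CpG positions checked fell on CG in that table. Genes with no start in it were not analysed here. The steps used python 3.11.15, numpy 2.4.6, scipy 1.17.1, pandas 2.3.3 and edgeR 4.0.16, and the test was tried on simulated data. With a difference of 15 points placed in 100 tiles it recovered 2 of them, and with 30 points 29. In gene start windows it recovered 11 of 100 at 15 points and 55 of 100 at 30 points. Each of these trials had 1 false call, and most of the placed differences were missed except in gene start windows at 30 points.

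Over the named gene windows, the 95% Wilson interval of a single library's level reached at most 10.8 points to either side at the lowest number of calls, and at most 2.77 points for those that lost methylation. Over the named tiles it reached at most 12.6 points, at the start of Unc80. In the PBS and the CD11b-positive group all pairs of replicates differed by more than counting noise, and the CD11b-negative group was not checked for this.

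Named tiles were, in each density class, the called tiles without overlap that gained and lost most. Named genes were, in the 5 families with the highest share called in each direction, the 2 called members without overlap with the largest difference, and the called members of each lineage list that gained and lost most. Members, families and lists were chosen with earlier results of these data known. Alternatives were other coverage minimums, strands, X, weights, windows, tools, a fit of all 12 libraries, the replicate block, the Y share as a term and leaving out each library. The Y term for class means, gene-end windows, leaving out chromosomes 2 and 17, and family counts and class means by place and level without each library were chosen after seeing the data.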

Additional observations from a re-analysis of the deposited data

Results flagged for a closer look

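Dixon's criterion flags by chance about 1 in 20 independent groups. The groups here are not independent, since class means share CpGs and libraries and named features were picked for large differences. Their count therefore cannot be set against that share. In 12 of 90 groups of 4 libraries, 1 library lay far from the other 3 by this criterion. CD11b-positive 2 was the far library in 10 of them. Its mean methylation was 39.6% over all common CpGs, 79.96%, 79.1%, 74.8% and 53.5% in the 4 sparser density classes, 44.0% at CpGs with mixed flanks and 53.4% at those between A or T. It was also far at Krtdap (77.3%), Cyp2w1 (90.7%) and Igsf21 (8.44%). PBS 1 was far in the tile inside Sox5 (3.42%) and PBS 2 at Cxcl12 (32.1%).

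Calls on Y genes, outside the main measurement, averaged 28.5 ± 8.58 per 1000000 autosomal calls in CD11b-positive libraries against 10.9 ± 5.66 in PBS (SD, n = 4, two-sided exact permutation p = 0.0286). The share of all calls that lay on X moved the other way. It was 1.77% ± 0.241 in CD11b-positive libraries against 2.37% ± 0.163 in PBS (SD, n = 4, two-sided exact permutation p = 0.0286). In CD11b-positive 2 it was 1.42%, and in CD11b-negative 2 it was 1.41%.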

How the results depend on the processing

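Class means kept their direction and side of the threshold under minimums of 5 and 20 calls and on either strand. The same held with X included, with a density window of 100 bp, and without chromosomes 2 and 17. The exception was the densest class, which was -2.07 when CpGs were weighted by calls (exact permutation test, adjusted p = 0.0643). Chromosomes 2 and 17 differed most between groups in their shares of calls. Those of chromosomes 5, 7 and 15 did not overlap either, and these chromosomes stayed in. Without single libraries the differences ran from 3.72 to 4.57 over all CpGs, 14.8 to 18.9, 11.4 to 14.7, 8.47 to 10.8, 3.80 to 4.70 and -2.24 to -1.44 by density, and 0.262 to 0.544, 4.77 to 5.97 and 8.97 to 11.5 by flanks. The densest class had adjusted p of 0.0643 without PBS 1 or PBS 3 and 0.0571 without CD11b-positive 2, with libraries still apart. With the Y share as a least-squares term they were 2.26 over all CpGs, 7.17, 5.44, 4.08, 2.26 and 0.153 by density, where the densest changed sign, and 1.11, 2.61 and 4.15 by flanks.

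Same-numbered PBS and CD11b-positive libraries correlated in their deviations at 0.151, 0.662, 0.172 and -0.0821, so the numbers were not taken to pair them. Permuting within the replicate block leaves the differences at 4.32, 17.7, 13.7, 10.1, 4.44, -1.96, 5.62 and 10.8 and allows no p under 0.125. With the block as a term, gene windows gave 470 higher and 511 lower calls.

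Tiles called higher were 16246 with at least 5 CpGs, and 133 higher and 25 lower with the Y term. Gene windows called lower were 221 with edgeR. Of the 36 named tiles and gene windows, 25 lost their call in the fit of all 12 libraries and 8 with edgeR, and none changed sign. The fit of all 12 libraries called 22 windows higher and 1 lower, and 70476 CpGs higher and 5300 lower. With the Y term the counts were 4 and 0 windows, and 1180 and 123 CpGs. Windows called higher were 346 on the plus strand, 334 on the minus strand and 992 at gene ends. Without single libraries, windows called ran from 192 to 508 higher and 13 to 528 lower, tiles from 30730 to 36169 and 2432 to 3304, and CpGs from 117305 to 163020 and 19982 to 38930. The cause of these shifts was not tested.

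With the Y term the differences changed sign at Cyp2w1 (-2.51), Ctnnd2 (5.04), Cdh8 (1.60), Kcnma1 (0.424), Igsf21 (5.45), Nlgn1 (2.61), Sema5a (4.78), Ntf3 (2.76), Egfem1 (3.01), Bcl11b (6.58) and Cxcl12 (4.47).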
